A study of Mus musculus with 44 samples.

Results

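Transcript levels of 7 tail bud genes, T, Tbx6, Nkx1-2, Fgf8, Fgf17, Wnt3a and Wnt5b, were followed through 44 low-input RNA-seq libraries from the gut endoderm of lineage-traced mouse embryos and its progenitors. The genes were taken by symbol from the deposited gene tables, in which each of the 7 has 1 identifier of 32287 in all. Embryos were made by aggregating GFP+ embryonic stem cells (G4) with mCherry+ host morulae (CD1/G4), so that GFP marks cells of embryonic (em) and mCherry cells of extraembryonic (ex) origin. At E6.5 the WT groups were the epiblast (Epi), the distal extraembryonic endoderm (exEndo 1) and the proximal extraembryonic endoderm (exEndo 2), each library being tissue from a single embryo (n = 4 each). At E9.5 the WT groups were emMidgut, exMidgut, emHindgut, exHindgut and yolk sac endoderm, YsEndo (n = 4 each). Each midgut or hindgut library was a small number of EPCAM+ cells sorted from tissue pooled over several embryos. The em cells were double positive cells with low mCherry, which are GFP+ cells carrying remnants of mCherry, and the ex cells were mCherry+. YsEndo cells were EPCAM+ and mCherry+. At E13.5 the groups were the colon and small intestine, emColon and emSI (GFP+, WT) and exColon and exSI (mCherry+, Trp53 KO, n = 3 each), all EPCAM+. Origin and strain background therefore change together throughout, and at E13.5 the Trp53 genotype changes with them, so these cannot be told apart. All em cells come from the stem cell line, F1G4 in the study's methods, and are male. By the same methods ex cells can be of either sex, so sex is not balanced between the origins. The ex cells come from host morulae whose mCherry parents, made from the same line, were kept by matings to C57BL/6J.

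The tail bud lies at the posterior end of the embryo and supplies cells for the elongating axis, next to the closing end of the hindgut. T (Brachyury) and Tbx6 are T-box transcription factors of the primitive streak and of its mesodermal progeny, and Nkx1-2 is a homeobox gene of neuromesodermal progenitors. Fgf8 and Fgf17 encode secreted FGF ligands, and Wnt3a and Wnt5b secreted Wnt ligands; both pathways help to keep the posterior progenitors of the axis. The hindgut libraries were therefore asked how much of this set they contain, and whether cells of extraembryonic origin contain it at the level of their embryonic neighbours.

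The 7 genes lie on 6 chromosomes of mm10. T (ENSMUSG00000062327) lies at chr17:8434423-8442496 on the plus strand and Tbx6 (ENSMUSG00000030699) at chr7:126781483-126785560, also plus. On the minus strand are Nkx1-2 (ENSMUSG00000048528, chr7:132594878-132599637), Fgf8 (ENSMUSG00000025219, chr19:45736798-45742915), Fgf17 (ENSMUSG00000022101, chr14:70636203-70642268), Wnt3a (ENSMUSG00000009900, chr11:59248033-59290752) and Wnt5b (ENSMUSG00000030170, chr6:119432531-119544347). Values are TPM, transcript abundances scaled to a fixed library total and to gene length. Comparisons between genes are limited for Wnt5b. In emHindgut replicate 1 its read depth per base was 41.4 at 242 TPM, against 1210 for T at 239 TPM. Ranks of Wnt5b among the members, and sums that include it, therefore hold for TPM only. Nkx1-2 overlaps an antisense gene and lies within the annotated span of Fgfr2, and Wnt5b holds the gene Fbxl14 on the opposite strand, so reads of overlapping genes could be shared. Fgfr2 averaged 56.8 TPM in emMidgut, where Nkx1-2 was listed at 0 in all 4 libraries.

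RefSeq promoter sequences (GRCm38.p6, the assembly of mm10) were at hand for 5 of the 7 genes and 7 start sites. Because the members rise together in the hindgut, the 250 bases before each start were searched on both strands for CTTTGA, bound by TCF/LEF factors of the Wnt pathway, AGGTGTNA, a T-box motif, and TTTATNG, a CDX motif. These letters occurred in 13.8%, 2.68% and 9.81%, respectively, of the 32851 promoter windows of the same length. The windows with a match are shown 5′ to 3′ along the gene's strand with the matches in capitals.
T, chr17:8434173-8434422, plus strand: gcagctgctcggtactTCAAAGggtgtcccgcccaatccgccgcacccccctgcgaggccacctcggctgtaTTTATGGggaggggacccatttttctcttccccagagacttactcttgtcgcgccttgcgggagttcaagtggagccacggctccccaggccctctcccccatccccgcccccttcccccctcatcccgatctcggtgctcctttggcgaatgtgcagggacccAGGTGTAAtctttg
Tbx6, chr7:126781233-126781482, plus strand: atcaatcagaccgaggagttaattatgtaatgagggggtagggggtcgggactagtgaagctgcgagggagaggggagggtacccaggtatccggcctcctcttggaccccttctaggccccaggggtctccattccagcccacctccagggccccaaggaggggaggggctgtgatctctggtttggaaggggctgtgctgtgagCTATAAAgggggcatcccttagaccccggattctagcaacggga
Wnt5b, the start nearest the gene's end, chr6:119449387-119449636, minus strand: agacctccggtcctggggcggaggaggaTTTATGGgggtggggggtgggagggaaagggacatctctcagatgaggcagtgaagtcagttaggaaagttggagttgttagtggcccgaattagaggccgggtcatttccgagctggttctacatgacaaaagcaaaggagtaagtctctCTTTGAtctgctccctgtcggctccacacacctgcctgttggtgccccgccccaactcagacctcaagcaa
T held 1 match of each motif, with the T-box letters 14 to 7 bases before the start and the TCF/LEF letters 234 to 229 bases before it. Tbx6 held 1 CDX match on the opposite strand, 44 to 38 bases before the start. Wnt5b held 1 CDX and 1 TCF/LEF match at this start. The windows of Nkx1-2, Wnt3a and the other two Wnt5b starts held none of these letters. A match is a description of the sequence only.

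The reporters matched the labels. The mCherry transcript averaged 7064 TPM in exHindgut and 2.39 TPM in emHindgut, and EGFP 0.599 and 622 TPM. All 10 gut endoderm markers of the marker list averaged above 1 TPM in both hindgut groups, among them Epcam at 376 TPM in emHindgut and 548 TPM in exHindgut and Foxa2 at 49.8 and 49.4 TPM. Between 10382 and 13596 genes per library exceeded 1 TPM. The deposited coverage, the mean read depth per base of a gene, was 218 to 1489 for T in the 8 hindgut libraries and 12.01 to 48.1 for Wnt5b at like TPM, so coverage per TPM differs between genes.

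All 7 genes were higher in emHindgut than in emMidgut, and 6 of 7 were higher in exHindgut than in exMidgut. Calls come from limma over the 16 gut libraries and need both an adjusted p under 0.05 and a difference in mean log2(TPM + 1) of more than 1 in size. Of the 13473 genes tested, 4.91% were called higher in emHindgut and 4.95% in exHindgut. All 7 members passed the filter on low values, and they did so mainly through the hindgut libraries, so the counts describe the members and do not support the direction. In bulk libraries, fewer cells with a transcript and less RNA per cell cannot be told apart.

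Fgf8, an FGF ligand made by posterior progenitors, was the most abundant member in both hindgut groups. Its levels in emHindgut were 532, 319, 455 and 451 TPM in replicates 1 to 4, and in exHindgut 591, 431, 376 and 321 TPM. In emMidgut it stood at 30.7 TPM in replicate 1 and at 0 in the other 3, and in exMidgut at 0.586 TPM in replicate 2 and at 0 elsewhere. No hindgut library overlapped a midgut library. The difference in mean log2(TPM + 1) was 7.51 (95% CI 6.03 to 8.99, adjusted p = 1.57e-07) for em and 8.55 (95% CI 7.07 to 10.0, adjusted p = 2.81e-08) for ex cells in limma.

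Fgf17, a close relative of Fgf8, followed it at a lower level. It measured 177, 111, 220.1 and 196 TPM in emHindgut and 246, 132, 116 and 136 TPM in exHindgut. The emMidgut libraries held 9.89, 5.30, 0 and 1.12 TPM, and the exMidgut libraries 0.0702, 0, 0 and 2.97 TPM, so the regions did not overlap in either origin. The limma differences were 5.63 (95% CI 4.46 to 6.79) and 6.72 (95% CI 5.56 to 7.89). The Fgf17 to Fgf8 ratio of TPM ranged from 0.307 to 0.484 over the 8 hindgut libraries.

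T reached 239, 177, 258 and 312 TPM in emHindgut and 286, 163, 141 and 195 TPM in exHindgut. In emMidgut T was at 11.9 and 3.55 TPM in replicates 1 and 2 and at 0 in the others, and in exMidgut at 5.84 TPM in replicate 2 and 1.42 TPM in replicate 4 and at 0 in the others. Every hindgut library therefore lay more than an order of magnitude above every midgut library. The log2 difference was 6.45 (95% CI 5.10 to 7.80, adjusted p = 3.48e-07) in em and 6.56 (95% CI 5.21 to 7.91, adjusted p = 2.92e-07) in ex cells by limma.

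Wnt5b, a ligand best known for signalling outside the β-catenin branch, was the more abundant of the Wnt members by TPM, whereas its deposited coverage lay below that of Wnt3a in all 8 hindgut libraries. It measured 242, 295, 287 and 225 TPM in emHindgut and 272, 282, 229 and 177 TPM in exHindgut. By mean TPM emMidgut held more of it than of the other members, at 29.0, 7.96, 4.11 and 12.6 TPM, against 4.96, 2.14, 0 and 4.32 TPM in exMidgut. The regional difference was 4.48 (95% CI 3.52 to 5.45) in em and 6.23 (95% CI 5.27 to 7.20) in ex cells on the log2 scale, with no overlap between regions.

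Wnt3a, the ligand that acts through β-catenin in the tail bud, was listed at 0 in all 8 midgut libraries, so no fold is given. It measured 49.5, 43.0, 55.7 and 49.5 TPM in emHindgut and 30.4, 12.6, 25.9 and 32.6 TPM in exHindgut. Limma called it higher in hindgut in both origins (adjusted p = 2.62e-10 in em and 4.63e-09 in ex). It passed the filter on low values through the hindgut libraries alone, so no other direction was open and these p-values do not support it. Its spread among emHindgut libraries was the narrowest of the 7 genes, with an SD of 10.5% of the mean.

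Tbx6, a factor required for paraxial mesoderm, measured 58.9, 67.4, 53.7 and 31.4 TPM in emHindgut and 15.6, 1.66, 21.2 and 9.62 TPM in exHindgut. It was at most 0.444 TPM in emMidgut, and in exMidgut it was at 0, 0.105, 3.26 and 0.610 TPM. The em regions did not overlap, whereas exHindgut replicate 2 lay below exMidgut replicate 3. The difference was 5.54 (95% CI 4.39 to 6.68, adjusted p = 3.06e-07) in em and 2.61 (95% CI 1.46 to 3.75, adjusted p = 0.00172) in ex cells by limma. The exact two-sided permutation test gave p = 0.0571 in ex cells.

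Nkx1-2 was the least abundant member, at 5.83, 3.15, 0.219 and 2.95 TPM in emHindgut and 1.85, 2.57, 0 and 1.74 TPM in exHindgut. It was listed at 0 in all 8 midgut libraries. Nkx1-2 too passed the filter through the hindgut libraries alone, so higher was the only direction open to it. Limma called it in em cells (adjusted p = 0.0109) but not in ex cells (adjusted p = 0.0832). The em call was lost without emHindgut replicate 1 (adjusted p = 0.0507), which held the highest level. In limma it was called in ex cells as well without exHindgut replicate 3, at 0 (adjusted p = 0.0231), and with a pseudocount of 0.1 (adjusted p = 0.0404).

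emMidgut replicate 1 was the highest of its group for T, Fgf8, Fgf17, Wnt5b and Tbx6. Its levels were 4.84%, 6.98%, 5.63% and 11.04% of the emHindgut means for the first of these and 0.840% for Tbx6, while Wnt3a and Nkx1-2 were at 0 in it. Cdx4 stood at 42.6, 34.4, 3.57 and 2.83 TPM in emMidgut replicates 1 to 4 and the germ cell marker Dppa3 at 224, 0, 183 and 0 TPM, so neither was high in replicate 1 alone. Of the tail bud partners, Cyp26a1 stood at 22.2, 1.39, 0.468 and 4.86 TPM in the same 4 libraries and Rspo3 at 11.1, 3.96, 1.73 and 1.83 TPM, both highest in replicate 1. The part of the libraries' make-up in these values was not tested. Without it all 7 members were still called in em cells, with log2 differences of 7.19 for T and 8.76 for Fgf8.

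**Figure D1:**
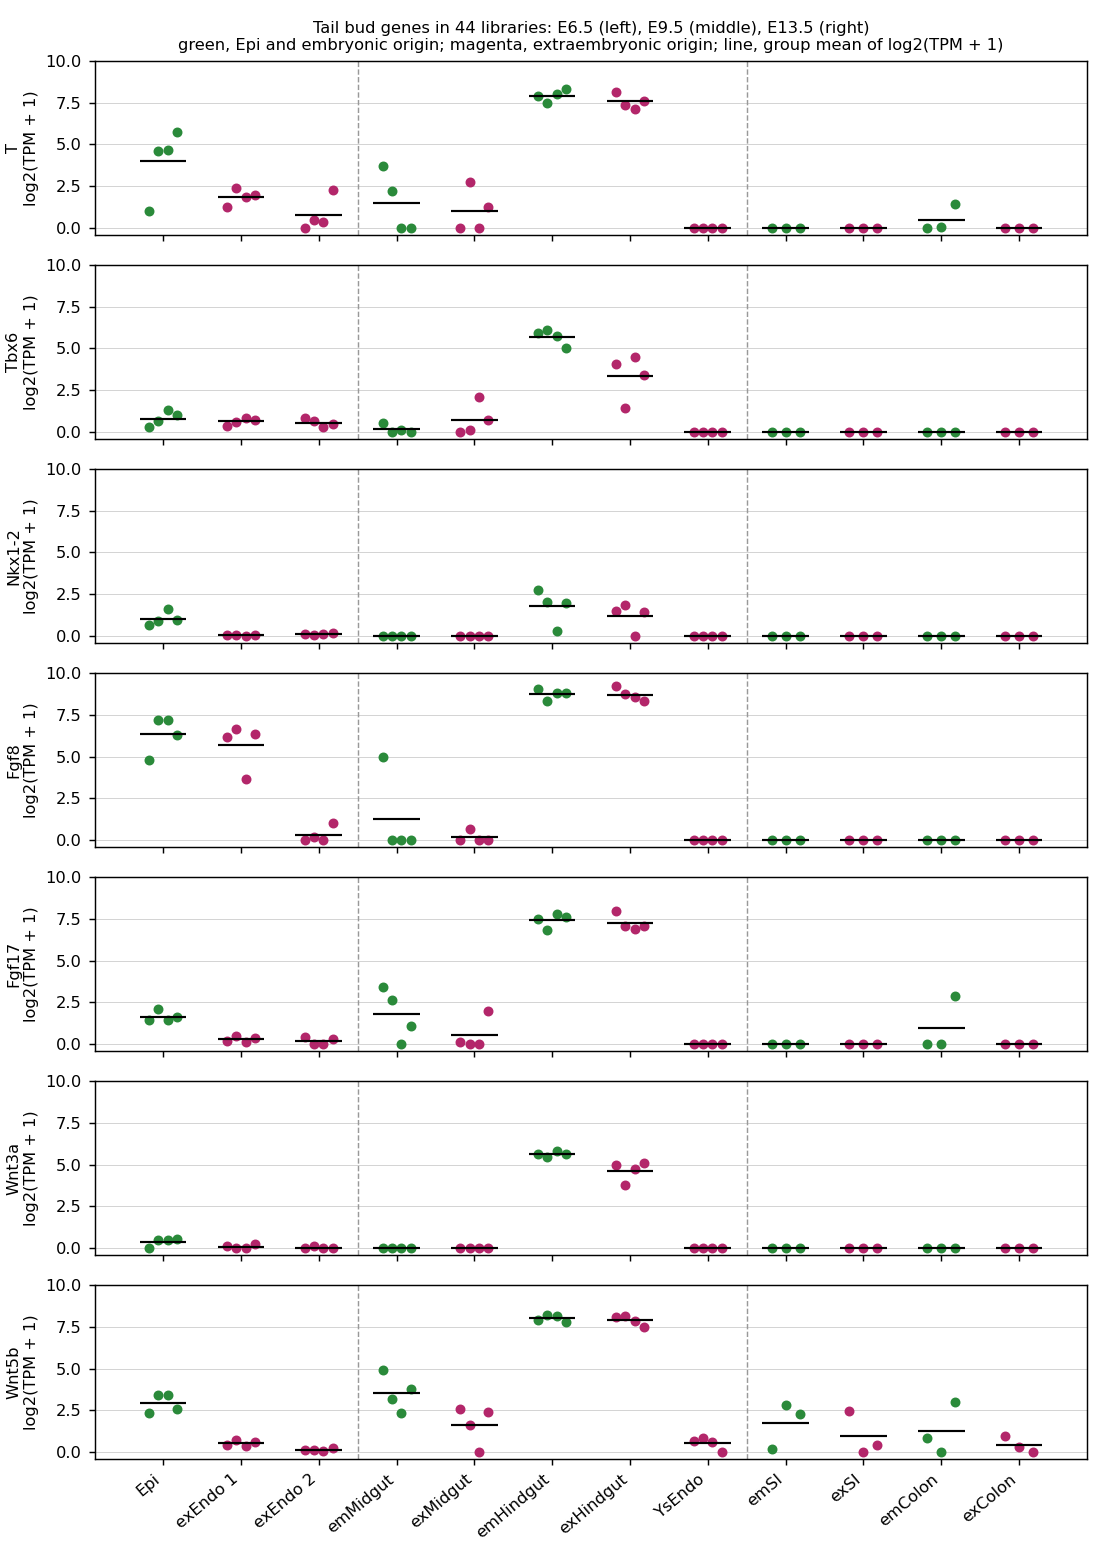
Level of each of the 7 genes, as log2(TPM + 1) on the vertical axis, in every library of the 12 groups on the horizontal axis; points are libraries, green for Epi and embryonic origin and magenta for extraembryonic origin, and lines are group means of log2(TPM + 1). The 8 hindgut libraries are the highest for T, Fgf8, Fgf17, Wnt3a and Wnt5b, and the YsEndo libraries are at 0 except for Wnt5b.

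Between the origins, 6 of the 7 genes gave no call in the hindgut and Tbx6 was called lower in exHindgut. Of the 13473 genes tested, 1.32% were called lower in exHindgut than in emHindgut. Mean levels in exHindgut were 97.9% of those in emHindgut for Fgf8, 91.6% for Wnt5b, 89.7% for Fgf17 and 79.5% for T. For Wnt3a the corresponding share was 51.4%, for Nkx1-2 50.7% and for Tbx6 22.7%.

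Fgf8 averaged 439 ± 88.4 TPM in emHindgut and 430 ± 117 TPM in exHindgut (SD, n = 4), and its limma difference was -0.04 with a 95% CI of -1.53 to 1.44. The intervals for the other uncalled members were -1.70 to 1.00 for T, -1.34 to 0.99 for Fgf17, -1.11 to 0.82 for Wnt5b and -1.57 to 0.43 for Nkx1-2. In these 5 genes the origins overlapped. The intervals are wide enough to hold differences above 1 on the log2 scale for each of them, so equality is not shown.

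For Tbx6 the groups did not overlap: the lowest emHindgut library held 31.4 TPM and the highest exHindgut library 21.2 TPM. The means were 52.9 ± 15.4 and 12.02 ± 8.37 TPM (SD, n = 4), a fold of 4.40, and the limma difference was -2.36 (95% CI -3.51 to -1.22, adjusted p = 0.0162). The exact two-sided permutation test gave p = 0.0286, the smallest that 4 against 4 libraries can give. The direction was the same under all alternatives, whereas the adjusted p ranged from 0.00642 to 0.175. The call was lost without exHindgut replicate 2, the lowest library, where the difference was -1.72 (limma, adjusted p = 0.0515), and without emHindgut replicate 1 (-2.29, adjusted p = 0.0522) or replicate 2 (-2.23, adjusted p = 0.0571).

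Wnt3a also did not overlap between the origins. Its lowest emHindgut library held 43.0 TPM and its highest exHindgut library 32.6 TPM, with means of 49.4 ± 5.19 and 25.4 ± 8.95 TPM (SD, n = 4). The difference of -1.01 (95% CI -1.69 to -0.33) did not pass the correction in limma (adjusted p = 0.0953, range over the alternatives 0.0228 to 0.351). The unadjusted exact permutation test of 4 against 4 libraries gave p = 0.0286. How many of all genes lie apart between the hindgut origins was not counted. At an unadjusted p below 0.05 in limma were 2 of 7 members, Tbx6 and Wnt3a, beside 2159 of 13473 genes.

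**Figure D2:**
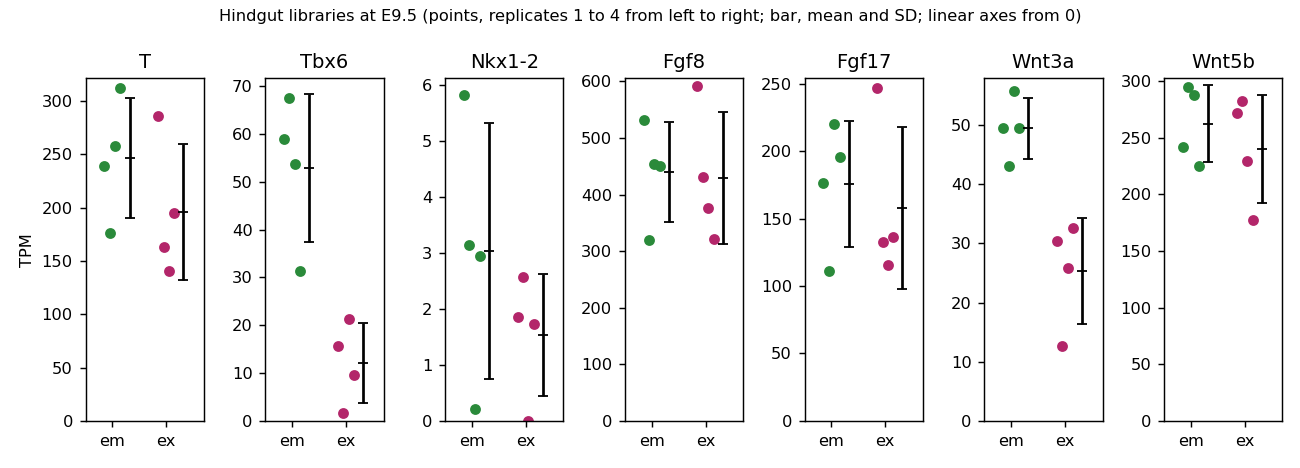
TPM of each gene in the 4 emHindgut (em) and 4 exHindgut (ex) libraries on linear axes from 0, with points for replicates 1 to 4 from left to right and bars for the mean and SD. The origins are apart for Tbx6 and Wnt3a and overlap for the other 5 genes. The share of all genes that lie apart was not counted.

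Because TPM depends on everything else in a library, the members were also related to T within each hindgut library. Tbx6 stood at 24.6%, 38.2%, 20.8% and 10.1% of the T level in emHindgut and at 5.46%, 1.02%, 15.1% and 4.95% in exHindgut. These shares overlapped, since emHindgut replicate 4 lay below exHindgut replicate 3. Wnt3a stood at 20.7%, 24.4%, 21.6% and 15.9% of T in emHindgut and at 10.6%, 7.75%, 18.4% and 16.8% in exHindgut, which overlapped too. The 7 members summed to 1015 to 1330 TPM in emHindgut and 873 to 1443 TPM in exHindgut.

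In the midgut, Wnt5b was the member that limma called between the origins, at -1.89 in exMidgut against emMidgut (95% CI -2.85 to -0.92, adjusted p = 0.0183). Over all genes, 2.2% were called lower in exMidgut. The Wnt5b groups overlapped, since exMidgut replicate 1 at 4.96 TPM lay above emMidgut replicate 3 at 4.11 TPM, and the exact two-sided permutation test of 4 against 4 libraries gave p = 0.0857. The call was lost without emMidgut replicate 1 (-1.43, adjusted p = 0.0707) or replicate 4 (-1.81, adjusted p = 0.0513) and without exMidgut replicate 3 (-1.33, adjusted p = 0.0546). It was also lost in limma with a pseudocount of 0.1 (-2.82, adjusted p = 0.0567). The same held with no filter, no trend or only the groups compared, where the difference stayed at -1.89 (adjusted p = 0.0801, 0.0612 and 0.127). Fgf17 gave -1.27 (adjusted p = 0.214), and without emMidgut replicate 3 it was called at -1.87 (adjusted p = 0.0354).

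The test of whether the regional difference itself depended on origin called none of the 7 members, against 0.0965% of all genes tested at an adjusted p below 0.05. The count at an unadjusted p below 0.05 was 3 of 7, beside 1052 of 13473 genes, with Tbx6 at -2.93 (adjusted p = 0.206), Wnt5b at 1.75 (adjusted p = 0.463) and Wnt3a at -1.01 (adjusted p = 0.618, limma). So neither the smaller Tbx6 difference in ex cells nor the larger Wnt5b difference was established as a difference between origins.

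**Figure D3:**
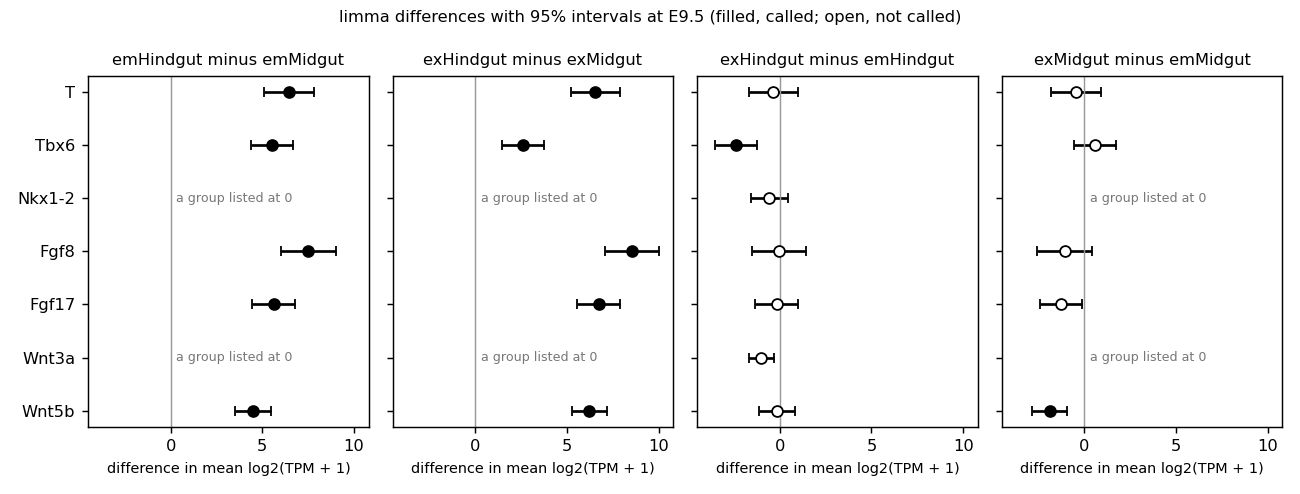
Differences in mean log2(TPM + 1) for the 7 genes in 4 comparisons at E9.5, with 95% limma intervals; filled points were called and open points were not, and genes with a group listed at 0 have no point. The regional differences lie between 2.61 and 8.55, and between the hindgut origins Tbx6 is the called gene at -2.36.

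The partners of the 7 genes in the tail bud and streak were read from a list of 15, of which 13 were tested. Among the tested genes, 10 were called higher in emHindgut and 8 in exHindgut than in the midgut of the same origin, and none lower. Partners at or near 0 in midgut, such as Fgf3 and Mixl1, passed the filter through the hindgut libraries. For such genes, here and in the lists below, the regional counts do not support the direction. Cyp26a1, the retinoic acid-degrading enzyme of the tail bud, averaged 589 TPM in emHindgut and 227 TPM in exHindgut, against 7.24 and 0.637 TPM in midgut. Rspo3, an R-spondin that enhances Wnt signalling, averaged 177 and 143 TPM against 4.64 and 2.18 TPM. The median log2 difference of the list was 3.84 in em cells over the 11 genes with no group at 0 and 3.31 in ex cells over 9 such genes, beside medians of -0.02 and 0 over all genes.

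Among these partners 2 were called lower in exHindgut than in emHindgut. In limma 4 of the 13 had an unadjusted p below 0.05, beside 2159 of the 13473 genes tested. Cdx4, a posterior homeobox gene, held 451, 509, 437 and 526 TPM in emHindgut and 16.2, 0, 0 and 0.0797 TPM in exHindgut (-7.85, adjusted p = 1.32e-06, limma). Fgf3, another FGF ligand of the streak, held 34.3, 34.4, 25.4 and 7.88 TPM against 9.58, 0.448, 3.44 and 2.27 TPM (-2.59, adjusted p = 0.00469). The median over the 13 genes was -0.33, beside -0.02 over all genes. Cyp26a1 was not called but did not overlap, at 447 to 699 TPM in emHindgut and 196 to 265 TPM in exHindgut. Sp5 and Evx1, by contrast, stood at 27.3 and 49.4 TPM in emHindgut and at 30.6 and 43.9 TPM in exHindgut.

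FGF pathway genes downstream of the ligands were described by 10 feedback regulators and targets, all tested. Of these, 8 were called higher in emHindgut and 6 in exHindgut than in the midgut of the same origin, and none differed by a call between the hindgut origins. Etv4, an FGF-responsive transcription factor, averaged 61.7 and 36.5 TPM in the hindgut and 1.47 and 0.971 TPM in the midgut of em and ex cells. Dusp6, a phosphatase that dampens ERK, averaged 448 and 379 TPM against 35.03 and 58.1 TPM. The list's median difference was 1.94 in em and 1.57 in ex cells. Between the hindgut origins the median was -0.21, and 1 of the 10 genes, Spry4, had an unadjusted p below 0.05 in limma (-1.08, adjusted p = 0.113).

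The FGF receptors that were called went the other way, whereas Fgfr1 was called in neither origin. Of 4 receptors, 2 were called lower in emHindgut and 3 in exHindgut, and none higher, where 7.92% and 7.3% of all genes tested were called lower. Fgfr4 averaged 2.98 and 5.37 TPM in the em and ex hindgut against 50.7 and 27.6 TPM in the midgut, and Fgfr2 17.3 and 18.03 TPM against 56.8 and 47.0 TPM. Of 6 other FGF ligands only 2 passed the filter on low values. Of these, Fgf15 was called in em cells, at 14.2 TPM in the hindgut, and Fgf9 was called lower in exHindgut than in emHindgut (1.33 against 12.5 TPM, -2.55, adjusted p = 0.0237, limma).

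Of 12 Wnt feedback regulators and targets, 9 were called higher in emHindgut and 8 in exHindgut than in midgut. Axin2 and Nkd1, negative-feedback genes of the β-catenin branch, averaged 14.4 and 54.7 TPM in emHindgut and 16.9 and 45.6 TPM in exHindgut. The list's median difference between the hindgut origins was 0.10. A single gene of the 12 was called between them: Nkd2 held 35.5, 62.0, 20.5 and 25.6 TPM in emHindgut and 0, 0.0789, 4.17 and 2.13 TPM in exHindgut (-4.05, adjusted p = 7.49e-05).

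Among 16 other Wnt ligands, 6 passed the filter on low values, and 4 of these were called higher in emHindgut and 3 in exHindgut. Wnt5a, which like Wnt5b is best known for signalling outside β-catenin, averaged 137 and 84.1 TPM in the em and ex hindgut and 14.6 and 10.7 TPM in the midgut. Wnt3 was at 11.1 and 7.82 TPM and was listed at 0 in all midgut libraries. Between the hindgut origins none of the 6 was called by limma, but 4 had an unadjusted p below 0.05, and the 16 ligands summed to 166 to 200.1 TPM in emHindgut and 93.2 to 112 TPM in exHindgut without overlap. Of the 14 receptors and co-receptors, Fzd10 was called higher in the hindgut of both origins (22.2 and 27.2 TPM), whereas Fzd2, Fzd4 and Fzd5 were called lower in both.

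Markers of other posterior cell types moved with the members, and their part in the results was not tested. Of 10 presomitic mesoderm genes, which mark the tissue that Tbx6 is known for, 7 were tested. Of these, 6 were called higher in emHindgut and 4 in exHindgut than in midgut, and 3 were called lower in exHindgut than in emHindgut. The genes Msgn1, Dll3 and Hes7 passed the filter on low values mainly through the hindgut libraries, so the regional counts do not support the direction for them. Msgn1, a target of T and Wnt3a in this tissue, held 116, 296, 80.7 and 75.7 TPM in emHindgut and 59.0, 0, 28.3 and 25.4 TPM in exHindgut (-3.05, adjusted p = 0.0339, limma). It was listed at 0 in all 8 midgut libraries. The Notch ligands Dll1 and Dll3 fell by 2.67 and 2.57 in exHindgut (adjusted p = 0.0236 and 0.00586).

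Hes7, the segmentation clock gene, averaged 47.3 and 21.7 TPM in the em and ex hindgut and did not pass the correction between them (-1.11, adjusted p = 0.193, limma). The summed level of the 10 presomitic genes was 194 to 380 TPM in emHindgut and 18.9 to 99.2 TPM in exHindgut, with the minimum in exHindgut replicate 2, where Tbx6 and Wnt3a were lowest as well. The groups did not overlap. The median difference of the list was -1.70, beside -0.02 over all genes.

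Gut endoderm markers moved the opposite way to the members between regions. Of 10 such genes, 8 were called lower in emHindgut and 6 in exHindgut than in the midgut of the same origin, and Sox17 was called higher in both. Epcam, the surface protein used for sorting, averaged 831 and 941 TPM in the em and ex midgut against 376 and 548 TPM in the hindgut, whereas Foxa2 averaged 42.8 and 63.2 TPM against 49.8 and 49.4 TPM. Between the hindgut origins none of the 10 was called by limma, and 4 had an unadjusted p below 0.05, beside 2159 of the 13473 genes tested. The summed level was 2023 to 2580 TPM in emHindgut and 2568 to 3490 TPM in exHindgut.

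Of 9 mesenchyme markers, 5 averaged above 1 TPM in both hindgut groups. Their summed level was 40.8 to 59.5 TPM in emHindgut and 22.7 to 28.2 TPM in exHindgut, against 9.05 to 18.3 TPM in emMidgut and 5.81 to 17.0 TPM in exMidgut. Pdgfra, Pdgfrb and Twist1 were called higher in emHindgut than in emMidgut, none was called between the ex regions, and Twist1 and Pdgfrb were called lower in exHindgut than in emHindgut (-1.90 and -1.71). Foxf1, Tbx18 and Meox2 were among the 4 markers at or below 1 TPM in both hindgut groups.

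Part of the surface ectoderm and neural markers was called higher in the hindgut. The 7 surface ectoderm markers summed to 47.6 to 57.3 TPM in emHindgut and 32.7 to 71.2 TPM in exHindgut, against 3.43 to 6.95 TPM in emMidgut and 7.26 to 22.2 TPM in exMidgut. Of the 4 tested, Dlx5 and Wnt6 were called higher in the hindgut of both origins, while Trp63 averaged 5.57 and 4.87 TPM in the em and ex hindgut and was not called. The 10 neural markers summed to 45.8 to 61.3 TPM and 34.0 to 53.4 TPM in the em and ex hindgut, against 5.89 to 16.7 TPM and 9.79 to 22.3 TPM in the midgut. Of the 3 tested, Pax3 was called higher in the hindgut of both origins and Sox2 in em cells, whereas Sox1, Pax6, Olig2 and Neurog2 averaged below 1 TPM in both hindgut groups.

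The summed notochord list, which includes the gut genes Foxa2 and Shh, was 123 to 177 TPM in emHindgut and 88.1 to 162 TPM in exHindgut, against 196 to 250.1 TPM and 168 to 235 TPM in the midgut. Noto was called higher in emHindgut (5.14 TPM) and Chrd in exHindgut than in the midgut of the same origin, whereas Shh was called lower in the hindgut of both. Noto averaged 1.58 TPM in exHindgut. Of 7 blood markers 1, and of 6 endothelial markers none, averaged above 1 TPM in either hindgut group.

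Yolk sac endoderm markers moved the opposite way to the members between regions and to Tbx6 between the hindgut origins. Of 9 such genes, 8 were called lower in emHindgut and 9 in exHindgut than in midgut, with summed levels of 7998 to 18457 TPM in exMidgut. Between the midgut origins, where Wnt5b was called lower, 7 of the 9 were called higher in exMidgut, beside 1.67% of all genes tested. In the hindgut 4 (Afp, Apob, Spink1 and Ttr) were called higher in exHindgut than in emHindgut, and none lower. Over all genes, 1.32% were called higher in exHindgut. The 9 genes summed to 126 to 790 TPM in exHindgut and 31.1 to 100.3 TPM in emHindgut.

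**Figure D4:**
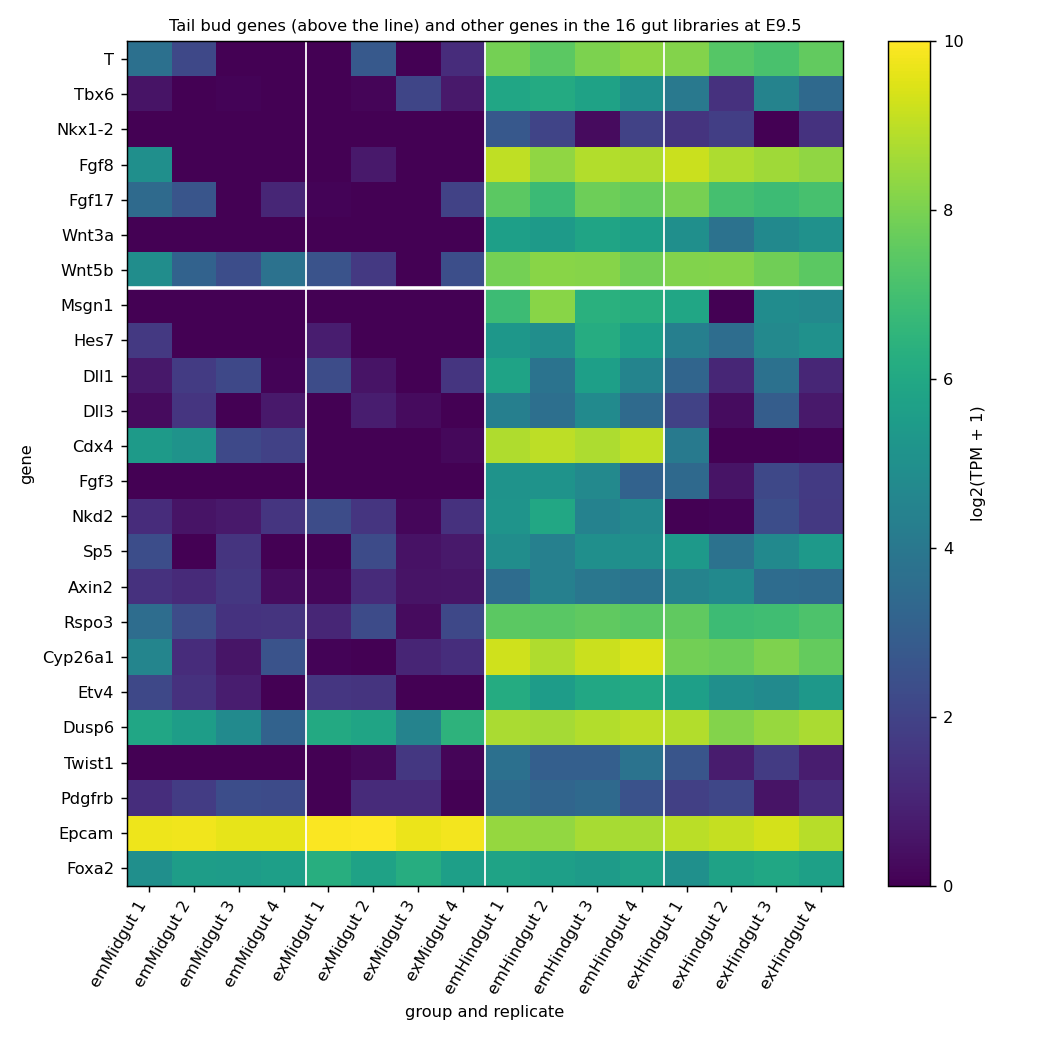
log2(TPM + 1), as colour, of the 7 tail bud genes (above the white line) and 17 other genes in the 16 gut libraries at E9.5, which are the columns. The hindgut columns are high for most rows of both blocks, and Msgn1, Dll1, Dll3, Cdx4, Fgf3 and Nkd2 are darker in the exHindgut columns, as is Tbx6.

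YsEndo is the extraembryonic endoderm that stays outside the embryo. T, Tbx6, Nkx1-2, Fgf8, Fgf17 and Wnt3a were listed at 0 in all 4 YsEndo libraries, and Wnt5b stood at 0.569, 0.778, 0.530 and 0 TPM. All 7 were called higher in exHindgut, and of all 13776 genes tested 32.2% were, with a median difference of 0.57. The members entered this test through the gut libraries of the same fit and lie at or near 0 in YsEndo, so no other direction was open to them and the count is a description. For Wnt5b the difference was 7.37 (95% CI 6.42 to 8.31, adjusted p = 3.02e-12, limma), and for the other 6 no fold is given. The Nkx1-2 call was lost without exHindgut replicate 2 (adjusted p = 0.0609) and with FPKM in place of TPM, where the difference was below the required size.

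At E6.5 the primitive streak is forming and the members were partly present in the epiblast. Fgf8 held 26.6, 143, 144 and 77.7 TPM in Epi, and T 1.05, 23.4, 24.1 and 53.5 TPM, so Epi replicate 1 was lowest for both. Wnt5b held 4.13 to 9.81 TPM and Fgf17 1.71 to 3.21 TPM. Nkx1-2 averaged 1.10 TPM and Tbx6 0.808 TPM, and Wnt3a did not exceed 0.482 TPM.

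In exEndo 1 Fgf8 held 71.0, 99.8, 11.49 and 80.6 TPM, which overlapped Epi (-0.65, 95% CI -1.96 to 0.65, adjusted p = 0.364, limma). In exEndo 2 it stood at 0, 0.135, 0 and 1.04 TPM. The difference between exEndo 1 and exEndo 2 was 5.40 (SE 0.61, adjusted p = 4.02e-05, limma without a replicate block). Fgf8 was the only one of the 4 members tested that was called between these layers, where 3.94% of 12430 genes were called higher in exEndo 1. Other genes of the streak and epiblast moved with it, and their part was not tested. Of 13 tail bud and streak partners tested, 6 were called higher in exEndo 1 and none lower. Mixl1 averaged 139 TPM in exEndo 1, 3.83 TPM in exEndo 2 and 128 TPM in Epi, Eomes 61.3, 10.04 and 73.9 TPM, and the epiblast ligand Fgf5 98.1, 0.667 and 121 TPM. The pluripotency gene Pou5f1, also called, averaged 12.7, 1.36 and 1609 TPM.

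The other members were low in both layers. T averaged 2.77 TPM in exEndo 1 and 1.11 TPM in exEndo 2, Wnt5b 0.462 and 0.114 TPM and Fgf17 0.238 and 0.144 TPM. Against Epi, 3 of the 4 members tested were called lower in exEndo 1 (T -2.16, Wnt5b -2.40 and Fgf17 -1.34), beside 13.2% of all genes, and 4 of 4 in exEndo 2 (Fgf8 -6.06, T -3.24, Wnt5b -2.78 and Fgf17 -1.46), beside 15.1%. Fgf17 and Wnt5b entered this test through the Epi libraries alone, so lower was the only direction open to them and the counts do not support it. The median over all genes in the first of these comparisons was 0.11. The exEndo 1 call of T was lost without Epi replicate 2, 3 or 4 or without exEndo 1 replicate 1 (adjusted p = 0.0559 to 0.0815, limma), with a pseudocount of 0.1 (0.0737) and with no filter (0.0609). The Fgf17 call in exEndo 1 was lost with FPKM in place of TPM, where the difference was -0.95. Leaving out any Epi library also removed Fgf17 and Wnt5b from the test, since just the 4 Epi libraries exceeded 1 TPM for them. Of the members below the filter, Nkx1-2 was lower in exEndo 1 and in exEndo 2 than in Epi (exact permutation p = 0.0286 for each, the smallest possible with 4 against 4), whereas Tbx6 (p = 0.514 and 0.314) and Wnt3a (p = 0.0857 and 0.0571) did not reach 0.05 in exact permutation tests.

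By E13.5 the set was nearly absent from the gut. Fgf8, Tbx6, Wnt3a and Nkx1-2 were listed at 0 in all 12 libraries of colon and small intestine. T stood at 1.72 TPM and Fgf17 at 6.46 TPM in emColon replicate 3, which also held the highest Wnt5b level of that stage at 7.06 TPM. T and Fgf17 were otherwise at 0, except for T at 0.0246 TPM in emColon replicate 2.

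Wnt5b averaged 2.62 TPM in emColon, 0.414 TPM in exColon, 3.40 TPM in emSI and 1.66 TPM in exSI, with overlapping groups. It was the single member tested at this stage and was called in none of the 4 comparisons between these groups, nor at an unadjusted p below 0.05. Background calls there were 0.617% (colon, by origin), 0.505% (small intestine, by origin), 0.729% (organs, em) and 0.857% (organs, ex). In simulated data for exColon against emColon, 4-unit log2 changes were recovered in 80% of cases and 2-unit changes in 35%. These changes were placed in genes of higher level than Wnt5b has here, so the rates do not apply to Wnt5b.

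Set against the hindgut, all 7 members were called lower in emColon (16.6% of 13407 genes were called lower) and 6 of 7 in exColon (7.22%). The medians over all genes were -0.52 and -0.22. Most members are at or near 0 in colon and passed the filter through the hindgut libraries, so these counts do not support the direction. T differed by -7.43 in em cells and Wnt5b by -6.74 in em and -7.45 in ex cells. Fgf17 averaged 2.15 TPM in emColon, held by replicate 3 alone, against 176 TPM in emHindgut. T and Fgf17 were at 0 in exColon, and the remaining members were at 0 in both colon groups. Nkx1-2 was the exception in ex cells (adjusted p = 0.174, limma), and its em call (adjusted p = 0.0278) was lost without any of the 3 emColon libraries or without emHindgut replicate 1, 2 or 4 (adjusted p = 0.0552 to 0.0833), and with quantile normalization (0.151). Stage, Trp53 genotype in ex cells and dissection change together in this comparison. So does the sort of em cells, double positive with low mCherry at E9.5 and GFP+ at E13.5. By the study's methods, E9.5 gut libraries are pools and E13.5 libraries come from individual embryos.

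Across the 12 groups, emHindgut ranked first and exHindgut second by mean level for all 7 genes. The ranges of these neighbours overlapped for T, Nkx1-2, Fgf8, Fgf17 and Wnt5b and were apart for Tbx6 and Wnt3a. The third group was Epi for T, Nkx1-2, Fgf8 and Wnt3a, at 25.5, 1.10, 97.8 and 0.329 TPM. It was emMidgut for Fgf17 and Wnt5b, at 4.08 and 13.4 TPM, and exMidgut for Tbx6, at 0.994 TPM. The step from exHindgut to the third group was wider than the ranges for T, Fgf8, Fgf17, Wnt3a and Wnt5b, but not for Tbx6 and Nkx1-2. Below the third group, neighbouring groups overlapped for every member but Nkx1-2, for which Epi lay above exEndo 2 and exEndo 2 above exEndo 1, all of them at low levels.

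Pairs of members had Pearson r from 0.798 to 0.977 over the 12 group means of log2(TPM + 1), a description of 21 pairs that share the same libraries. Among the 10 genes outside the set whose 12 group means most resembled the members' mean pattern were Hes5, Psd2, Gad1, Gm29695, Sall3, Ccr7, Aplnr, Timp4 and Lmo2, with r from 0.967 to 0.986 among 15249 genes compared. Lmo2 was the most abundant of them, at 162 TPM in emHindgut, 202 TPM in exHindgut and 0.846 TPM or less in midgut. Sall3 stood at 38.1 and 27.1 TPM in the hindgut groups. For T alone the nearest genes were Timp4, Sall3 and Kctd16 (r = 0.9899, 0.983 and 0.978 over 12 group means). Over the 16 gut libraries alone, Spry4, Hoxd11 and Rspo3 led the list, with r from 0.987 to 0.9898, and 1 gene, Lmo2, was shared with the 10 above.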

How the data were processed

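Per the labels and the study's methods, the authors built low-input RNA-seq libraries by a protocol adapted from Smart-RRBS, used cutadapt 4.1 for trimming, STAR 2.7.9a for alignment to mm10 with both reporter sequences (GFP, mCherry) added, and StringTie 2.0.6 to quantify GENCODE VM23 genes. The deposited TPM, FPKM and coverage values per gene were used; TPM sums to 1000000 in each library. Rows of an identifier were summed. Gene types came from GENCODE vM21 (32237 of 32287 identifiers matched).

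Differences in log2(TPM + 1) were tested with limma 3.58.1 (R 4.3.3, eBayes with trend, two-sided, Benjamini-Hochberg over all genes tested) in protein-coding, non-Y genes whose level exceeded 1 TPM in 4 or more of the fitted libraries (3 with E13.5 groups). This scale understates changes of low genes. The study's count test needs counts, which these files do not hold. Members without a fit had exact permutation tests (SciPy 1.17.1). Fitted members had them too in the comparisons of E9.5 gut groups, unadjusted and beside limma, and these are quoted for some members. On simulated data for emHindgut against emMidgut, limma recovered 97% of 2-unit changes, which were placed in the more abundant of 13473 genes. Replicates at E9.5 are pools, and nothing in the sources states whether pools were shared, so p-values measure only the spread between these samples. Same-numbered libraries were read as paired where every r exceeded 0.1, which held for exEndo 1 and exEndo 2 (r = 0.176 to 0.394). The main fit held no replicate block, so the SE and adjusted p given between these layers ignore this pairing. As an alternative, the block changed no member's call.

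Lists and members were chosen with earlier results of these data known. All members are named with their values; of each list, up to 4 called genes with the largest differences, some further genes shown for comparison and fixed cell type markers; and the genes most alike (1 of the 10 is not reported here). Alternatives were a pseudocount of 0.1, no filter, median-ratio and quantile scaling, FPKM, no trend, all gene types, only the groups compared, a replicate block and leaving out each library.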

Additional observations from a re-analysis of the deposited data

Results flagged for a closer look

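Among 32 sets of 4 libraries with a member above 1 TPM in at least 1 library, 5 had a library set apart from the other 3. Chance flags about 1 in 20 of unselected sets, but 4 of the 5 entered only because the library set apart exceeded 1 TPM, so that rate does not apply to them. Fgf8 in emMidgut stood at 30.7 TPM in replicate 1 and at 0 in the others. Fgf17 in exHindgut reached 246 TPM in replicate 1, against 116 to 136 TPM in the others, and Fgf17 in exMidgut 2.97 TPM in replicate 4. In exEndo 2, replicate 4 was highest for both T (3.74 TPM) and Fgf8 (1.04 TPM). Groups of 3 at E13.5 were not examined in this way.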

How the results depend on the processing

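Of 1224 differences recomputed for single members, 1189 kept their side of the threshold, 29 lost their call, 6 gained one and none called in the report changed sign. Between the hindgut origins 1 member was called. With a pseudocount of 0.1 or no filter this became 0, with Tbx6 still at -2.55 and -2.36 (adjusted p = 0.175 and 0.0574, limma). Without trend or with only these 2 groups it became 2, Wnt3a being added (adjusted p = 0.0228 and 0.0315, limma). Between the midgut origins the 1 call became 0 with a pseudocount of 0.1, no filter, no trend or only these groups. With the pseudocount of 0.1, 2 members differed between exEndo 1 and exEndo 2. Leaving out single libraries gave 6 to 7 calls for either hindgut against its midgut, 0 to 1 between hindgut and 0 to 2 between midgut origins, 6 to 7 for exHindgut against YsEndo, 0 to 3 and 2 to 4 for exEndo 1 and exEndo 2 against Epi, 1 between these layers, 6 to 7 and 6 for colon against hindgut in em and ex cells, and 0 for the interaction and within E13.5. The causes were not tested, except that fewer libraries let fewer genes pass the filter in Epi.

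With a replicate block the counts were 7 of 7 in em and 6 of 7 in ex cells between regions and 1 between hindgut origins (Tbx6 adjusted p = 0.0123, limma); the block changed no other count of members called. The E9.5 libraries were not taken as paired by number (r = -0.0169 to 0.0725), which does not exclude a weak pairing. Between emMidgut and exMidgut, 3 of 4 libraries correlated best with their own number (r = 0.00851 to 0.0725). The other E9.5 gut group pairs had 1 to 3 of 4. At E13.5, libraries of emSI and exSI correlated best with their own number in 3 of 3 pairs (r = 0.0484 to 0.0637), as did those of 3 other group pairs at lower r, a hint from the data and not the design. Of the 10 genes most alike, 0 were shared with the Spearman ranking and 1 with the 16 gut libraries. Over all genes, the interaction had 13 calls, 0 with the pseudocount of 0.1, 8 without filter, without trend or with the block, and 3 to 7 without single libraries, the midgut origins 521 and 321 with only these groups, exColon against exSI 107 and 25 to 70, exColon against emColon 77 and 30 to 51, emColon against emSI 91 and 25 to 53, and exSI against emSI 63 and 33 to 38, the ranges covering the settings, single libraries left out included, that moved a count by over 1.5 times. No counts were used here, so no counting error can be given for values near 1 TPM.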
